A study of Mus musculus with 16 samples.

Results

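Transcripts of 10 genes that growth factor signalling through the kinase ERK switches on were followed in the livers of Pdgf-c transgenic and wildtype mice. They were chosen by name as feedback inhibitors and targets downstream of receptor tyrosine kinases: the phosphatase genes Dusp4, Dusp5 and Dusp6, the Sprouty genes Spry1, Spry2 and Spry4, the Spred genes Spred1 and Spred2, and the transcription factor genes Etv4 and Etv5. All 10 had a row on the array, out of 19938 genes with a row of a single symbol. The samples were 7 livers of Pdgf-c transgenic mice on the C57BL/6 background and 9 livers of wildtype C57BL/6 mice, each hybridised to 1 Affymetrix Mouse Gene 1.0 ST array. Pdgf-c encodes a ligand of the PDGF receptors; the promoter of the transgene, the age of the mice and whether each array is a separate animal are not given in the sources used here, so the p-values below cover the variation among these samples, which may be technical. The labels name stromal cells as the cell type, whereas the extraction protocol is for hepatic RNA in total; the hepatocyte gene Alb averaged 13.5 in the transgenic and 13.6 in the wildtype group on the log2 scale.

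When a ligand binds a receptor tyrosine kinase, the small GTPase RAS is loaded with GTP and the kinases RAF, MEK and ERK are activated in turn. ERK then induces genes that switch the same pathway off: Sprouty and Spred proteins act at the level of receptors and RAS, and dual specificity phosphatases remove the activating phosphates from ERK itself. Etv4 and Etv5, ETS factors of the PEA3 group, carry part of the transcriptional output. Levels of these transcripts are therefore widely read as a record of ERK activity, although they also depend on the cell types in a tissue.

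Values are GCRMA log2 intensities, so a difference of 1 is a doubling. Column medians lay between 5.23 and 5.36 on transgenic and between 5.20 and 5.26 on wildtype arrays. Arrays of the same group correlated at 0.982 to 0.991 (Pearson's r over 35557 rows), those of different groups at 0.976 to 0.987. Wildtype array 9 stood apart on the second principal component at -54.4, with transgenic array 1 at the other end at 28.8. The 10 genes sat between the 48.7th percentile of row means (Etv4) and the 88.8th (Dusp6), and none lay below the 20th percentile of the table (3.45).

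The promoters of Spry1, Dusp6 and Dusp5 are shown because Spry1 had the smallest p of the 10 genes, and because the last pair encodes ERK phosphatases with different results. Each line gives the 250 bases before the annotated start, 5′ to 3′ on the strand of the gene, from RefSeq on build GRCm38.p6. They lie at chr3:37639697-37639946 (plus strand), chr10:99262981-99263230 (plus strand) and chr19:53528895-53529144 (plus strand). Capitals mark motif matches.
Spry1: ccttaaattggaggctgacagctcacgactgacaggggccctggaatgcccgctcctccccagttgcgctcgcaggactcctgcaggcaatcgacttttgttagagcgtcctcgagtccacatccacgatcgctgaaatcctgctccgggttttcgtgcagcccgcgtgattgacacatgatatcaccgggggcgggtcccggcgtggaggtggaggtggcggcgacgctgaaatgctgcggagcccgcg
Dusp6: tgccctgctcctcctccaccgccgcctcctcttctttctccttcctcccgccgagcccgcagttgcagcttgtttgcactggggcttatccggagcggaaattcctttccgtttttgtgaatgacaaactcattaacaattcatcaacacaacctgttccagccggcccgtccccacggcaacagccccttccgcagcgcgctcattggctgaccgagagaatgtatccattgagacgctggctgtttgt
Dusp5: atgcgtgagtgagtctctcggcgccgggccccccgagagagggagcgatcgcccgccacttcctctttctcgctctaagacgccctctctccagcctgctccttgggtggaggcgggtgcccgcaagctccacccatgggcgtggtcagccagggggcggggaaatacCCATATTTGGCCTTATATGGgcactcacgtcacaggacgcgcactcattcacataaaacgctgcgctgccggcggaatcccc
Searched on both strands were the ETS motif CCGGAAG, the AP-1 motif TGANTCA, the CRE TGACGTCA and the CArG box, the binding site of serum response factor. The Dusp5 window held 2 adjacent CArG boxes, at bases -82 to -73 and -72 to -63 from the start, and no other motif. The CArG box occurred in 1.47% of 32851 windows of the same length, the ETS motif in 6.91%, the AP-1 motif in 6.75% and the CRE in 1.55%. None of the 4 motifs occurred in the windows of Spry1, Dusp6, Spry2, Spred1, Spred2 or Etv5, which says only that these letters are not in those bases. Windows were read for 7 of the 10 genes, after member windows on a chromosome set aside in the search were dropped. Dusp4, Etv4 and Spry4 have no window here.

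Of the 10 genes, 6 were higher in the transgenic livers, none was lower and 4 did not pass the test. Spred2, Spry1, Dusp6, Spry2 and Spred1 rose 1.41 to 1.61-fold and Etv5 1.24-fold; the other four differed by 0.20 (Dusp4), 0.18 (Spry4), 0.03 (Etv4) and 0.01 (Dusp5) on the log2 scale, the last pair without a stable sign (-0.02 and -0.06 after quantile normalization). A gene was called at an adjusted p of 0.05 (limma, Benjamini-Hochberg over all rows). At that threshold 12.1% of all genes were higher and 11.1% lower. Among all rows 18.9% were called. In a fit of only the rows above the median level, which hold all of the 10 genes but Etv4, 35.3% were called. Of those called rows, 52.9% were higher. The median difference was 0.40 over the 10 genes and -0.04 over all genes. In 4 of the 10, Spry1, Spry2, Spred1 and Spred2, the lowest transgenic array was above the highest wildtype array, which held for 5.43% of all genes; the reverse held for none of the 10 and for 3.65% of all genes.

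**Figure D1:**
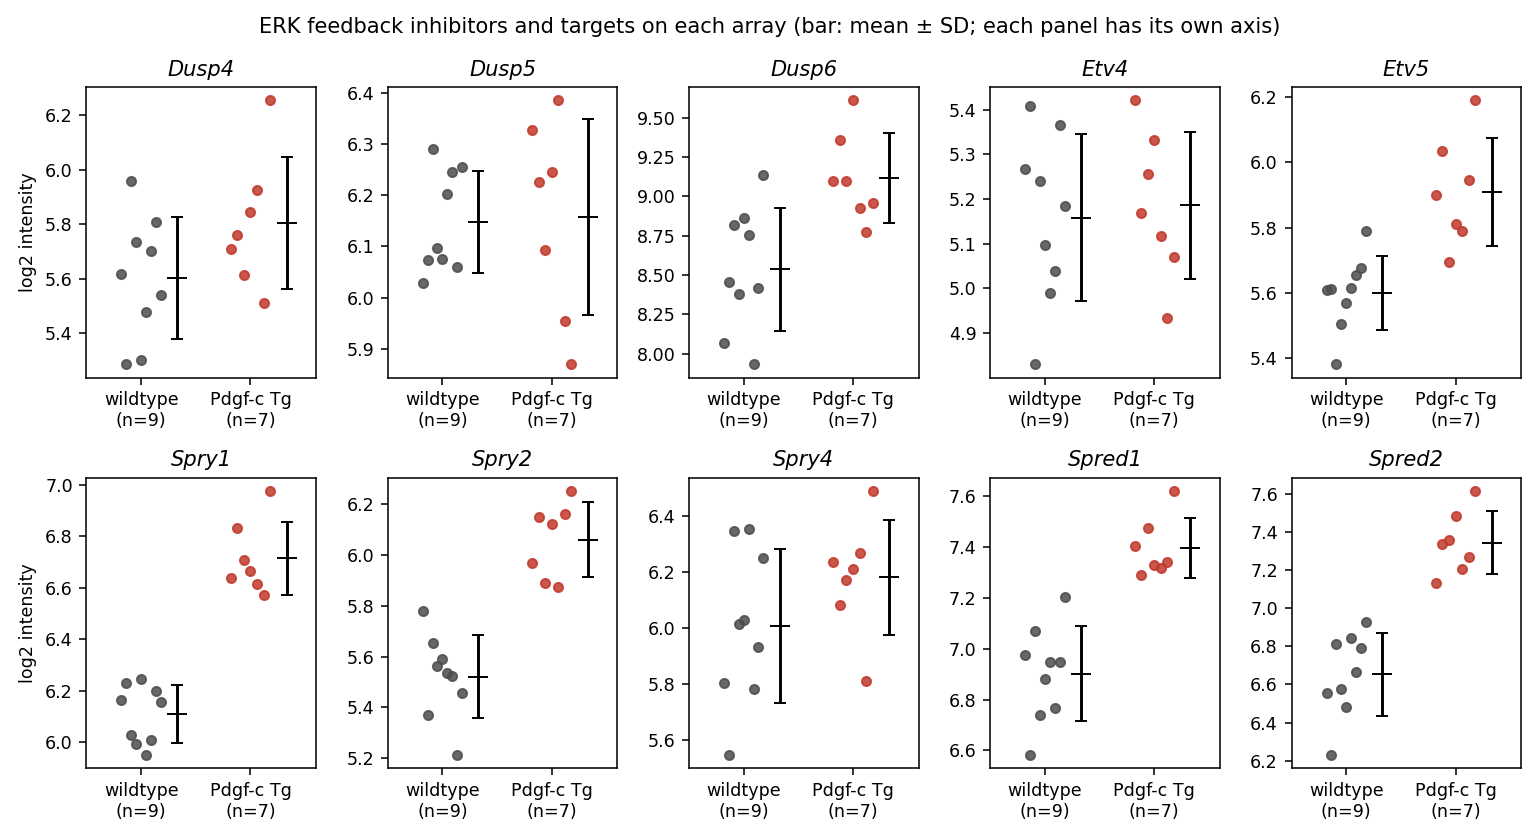
Log2 intensity of each gene on every array, with wildtype arrays in grey (n = 9), transgenic arrays in red (n = 7) and bars for mean ± SD; each panel has its own axis. The groups are apart in Spry1, Spry2, Spred1 and Spred2 and overlap in the other six.

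The Sprouty genes encode membrane-associated inhibitors that growth factors induce and that dampen the step from receptor to RAS. Spry1 ranged from 6.57 to 6.98 (median 6.66) on the transgenic arrays and from 5.95 to 6.25 (median 6.15) on the wildtype arrays. The lowest transgenic array was above the highest wildtype array, and the difference was 0.61 ± 0.0669 (SE; 1.52-fold, limma adjusted p = 2.84e-06). Spry2 ranged from 5.88 to 6.25 (median 6.12) with the transgene and from 5.21 to 5.78 (median 5.54) without it. Its groups were also apart, with a difference of 0.54 ± 0.0804 (1.45-fold, limma adjusted p = 7.94e-05).

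Spry4, the third Sprouty gene on the list, was spread over much the same range in both groups. Transgenic arrays lay between 5.81 and 6.49 (median 6.21) and wildtype arrays between 5.54 and 6.35 (median 6.01), and 1 transgenic array exceeded all wildtype arrays. The difference of 0.18 ± 0.118 did not pass the test (limma adjusted p = 0.353; 95% interval -0.07 to 0.42). Whether the Sprouty genes differed from each other in their change was tested on the within-array difference between their log2 values. Spry1 minus Spry4 averaged 0.53 ± 0.162 (SD, n = 7) on transgenic and 0.10 ± 0.345 (SD, n = 9) on wildtype arrays, a shift of 0.43 (exact permutation test, two-sided, p = 0.00962, adjusted over 8 family contrasts 0.0282). Spry2 minus Spry4 shifted by 0.36 (exact permutation test, adjusted p = 0.0375) and Spry1 minus Spry2 by 0.07 (adjusted p = 0.491, same exact test). Leaving out transgenic array 2 or 6 ended the first call (adjusted p = 0.0597 and 0.0575). The second call ended when any of transgenic arrays 2, 4, 6 and 7 and wildtype arrays 3, 4, 5, 6, 8 and 9 was left out (adjusted p 0.0511 to 0.0841).

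The Spred proteins, relatives of Sprouty, bind neurofibromin, the RAS-inactivating product of Nf1, and bring it to the membrane. Spred2 had the largest difference of the 10 genes. Its transgenic arrays ranged from 7.13 to 7.61 (median 7.34) and its wildtype arrays from 6.23 to 6.93 (median 6.67), with no overlap. The difference was 0.69 ± 0.0943 (1.61-fold, limma adjusted p = 3.34e-05). A second, dimmer Spred2 row ranged from 6.33 to 6.89 (median 6.51) and from 5.78 to 6.54 (median 6.21). There the groups overlapped, and the difference was 0.33 ± 0.098 (1.26-fold, limma adjusted p = 0.024), so the rows shared the direction but not the size.

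Spred1 ranged from 7.29 to 7.62 (median 7.34) on transgenic and from 6.58 to 7.21 (median 6.95) on wildtype arrays. Again the groups were apart, and the difference was 0.49 ± 0.0791 (1.41-fold, limma adjusted p = 0.000167). Spred2 minus Spred1 shifted by 0.19 between the groups (exact permutation test, adjusted p = 0.0282). With the mean of both Spred2 rows the shift was 0.01 (adjusted p = 0.807, exact test), so the unequal change of the Spred genes rested on the brighter row. Leaving out transgenic array 2, 4 or 6 ended the call as well (adjusted p 0.0597, 0.0515 and 0.0575). Nf1 itself, which both Spred proteins recruit, was 1.34-fold higher (0.43 ± 0.0948, limma adjusted p = 0.00331).

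Among the phosphatases, Dusp6, which acts on ERK in the cytoplasm, rose while Dusp5, which acts on ERK in the nucleus, did not pass the test. Dusp6 was the brightest of the 10 rows, from 8.77 to 9.61 (median 9.10) on transgenic and from 7.93 to 9.14 (median 8.46) on wildtype arrays. Its wildtype arrays spread most, and only transgenic arrays 2 and 4 exceeded all of them; wildtype array 9, the array that stood apart, was the highest wildtype value. The difference was 0.58 ± 0.16 (1.5-fold, limma adjusted p = 0.0144).

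Dusp5 lay between 5.87 and 6.38 (median 6.23) in the transgenic group and between 6.03 and 6.29 (median 6.10) in the wildtype group. Transgenic arrays were both the highest and the lowest of all, and the difference was 0.01 ± 0.0753 (95% interval -0.15 to 0.17, limma adjusted p = 0.95). Dusp6 minus Dusp5 shifted by 0.57 (exact permutation test, adjusted p = 0.0282), and without transgenic array 2 the adjusted p was 0.0597. The Dusp5 window printed above holds the paired CArG boxes, whose part in its level was not tested.

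Dusp4 encodes a nuclear phosphatase that acts on ERK and other MAP kinases. It ranged from 5.51 to 6.26 (median 5.76) with the transgene and from 5.28 to 5.96 (median 5.62) without it, and transgenic array 7 alone was above all wildtype arrays. The difference of 0.20 ± 0.112 did not pass the test (95% interval -0.03 to 0.44, limma adjusted p = 0.249). Its shift against Dusp6 (0.38 for Dusp6 minus Dusp4, adjusted p = 0.145) and against Dusp5 (0.19 for Dusp4 minus Dusp5, adjusted p = 0.207) did not pass the exact permutation test either.

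Etv5 was higher and Etv4 did not pass the test. The brighter Etv5 row ranged from 5.70 to 6.19 (median 5.90) on transgenic and from 5.38 to 5.79 (median 5.61) on wildtype arrays, and 6 of the 7 transgenic values were above the highest wildtype value. Its difference was 0.31 ± 0.0731 (1.24-fold, limma adjusted p = 0.00524). A second Etv5 row, from 5.16 to 5.63 and from 4.62 to 5.29, gave 0.38 ± 0.101 (1.30-fold, limma adjusted p = 0.0117), so both rows were higher. The order of the arrays differed, as transgenic array 3 was the lowest of its group in the brighter row and the highest in the second.

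Etv4 lay between 4.93 and 5.42 (median 5.17) and between 4.83 and 5.41 (median 5.18), nearly the same range. It was the dimmest of the 10 rows, and the difference was 0.03 ± 0.0896 (95% interval -0.16 to 0.22, limma adjusted p = 0.878). Etv5 minus Etv4 shifted by 0.28 (exact permutation test, adjusted p = 0.0375); the call ended after quantile normalization (0.0548) and on leaving out any of transgenic arrays 2, 6 and 7 and wildtype arrays 1, 2, 3, 4, 5 and 8 (0.0525 to 0.0841). In all, 5 of the 8 family contrasts passed. These contrasts were chosen after the members' values were seen.

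**Figure D2:**
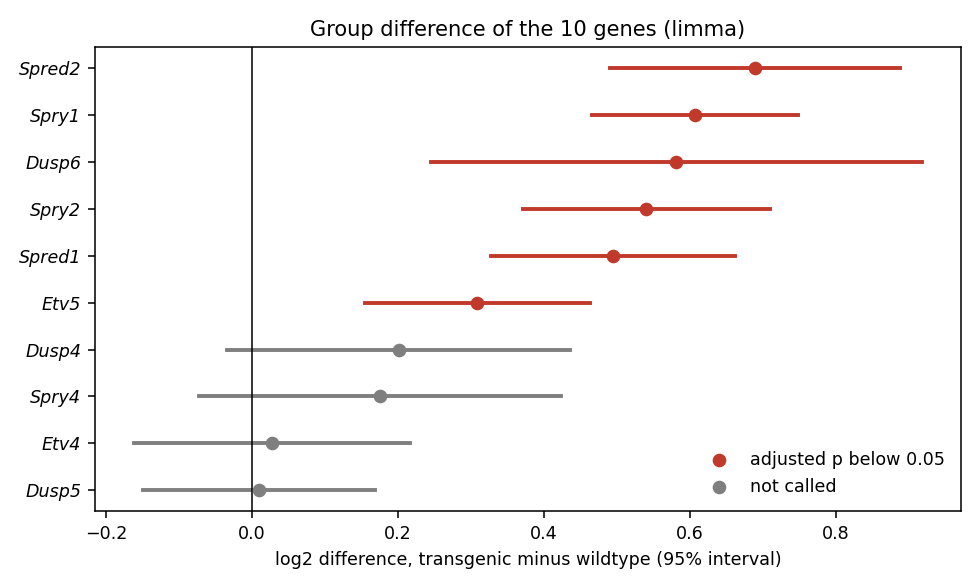
Log2 difference between transgenic and wildtype means for each gene, with the 95% interval of the limma fit; red marks an adjusted p below 0.05. The 6 called genes lie between 0.31 and 0.69, and the intervals of Dusp4, Spry4, Etv4 and Dusp5 include 0.

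Single arrays contributed unequally to the upper ends of these ranges. Transgenic array 7 was the highest of its group in 7 of the 10 genes (Dusp4, Spry1, Spry2, Spry4, Spred1, Spred2 and Etv5) and the lowest in Dusp5. Transgenic array 6 was the lowest of its group in 5 genes. In the wildtype group, array 9 was the highest in Dusp6, Spred1, Spred2 and Etv5, and array 2 was the lowest in 4 genes. These ranks used the brighter rows of Etv5 and Spred2. In the dimmer Etv5 row, transgenic array 7 was the lowest of its group (5.16) and array 3 the highest (5.63). There wildtype array 9 had 4.85, against 5.29 on array 6. In the dimmer Spred2 row it had 6.375, against 6.54 on array 8. Each of the 6 calls was kept in all 17 sets with arrays left out, including the one without transgenic array 1 and wildtype array 9; Dusp6 came closest to the threshold (limma adjusted p = 0.0371).

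**Figure D3:**
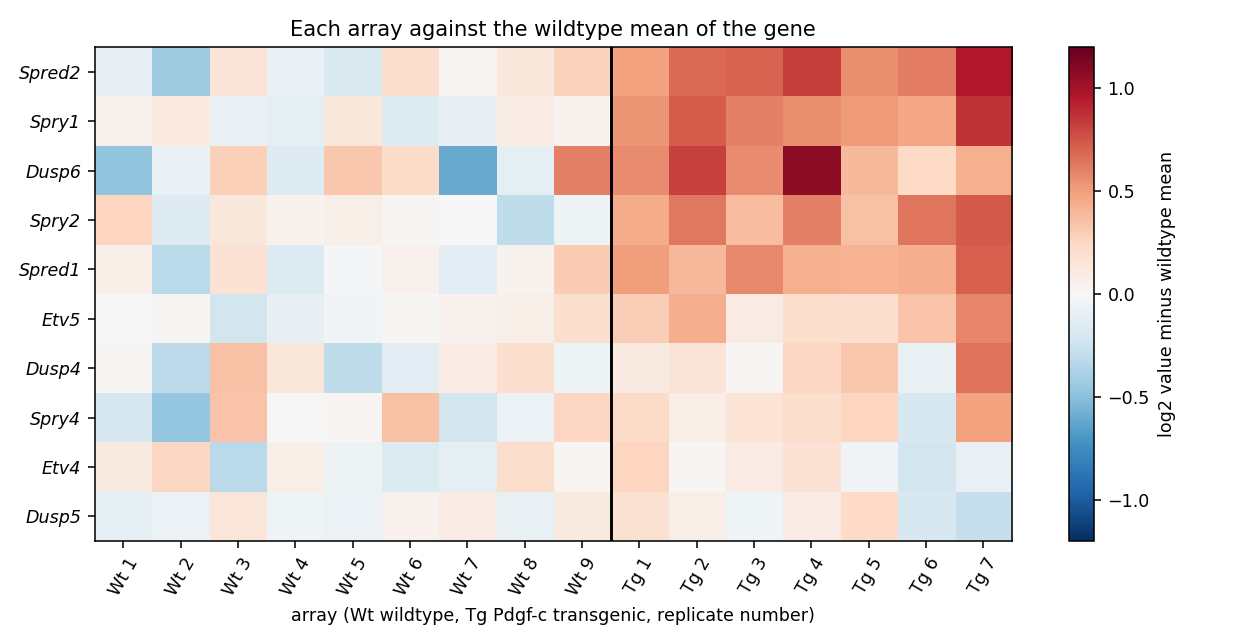
Log2 value of each gene on each array minus the wildtype mean of that gene; columns are arrays, rows are genes in order of their group difference, red is above and blue below. The upper 6 rows are red on the transgenic side, and transgenic array 7 is the highest of its group in 7 rows.

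Within each group, the genes did not vary together in a way that passed the test. Over the 45 pairs, median Pearson's r was 0.285 on transgenic arrays (n = 7) and 0.103 on wildtype arrays (n = 9), where the groups were read apart because they form separate clusters. None of 90 relations had an adjusted p below 0.05 (exact permutation test, lowest adjusted p = 0.313; 8 had an unadjusted p below 0.05). The pair with the smallest p was Spred1 and Spred2 on wildtype arrays, with r = 0.826 and Spearman's rho = 0.717 (exact permutation p = 0.00663 and 0.0369, adjusted 0.313 and 0.48), and r = 0.484 without the arrays farthest from the Spred1 median. On transgenic arrays the pair Dusp4 and Spry4 had r = 0.868 and rho = 0.821 (exact permutation p = 0.0202 and 0.0341, adjusted 0.313 and 0.48), falling to r = 0.42 without the farthest arrays. The genes whose array-to-array deviations from the group means were most like those of Spred2, by Pearson's r over 16 arrays among 11556 genes, were Rab14 (0.895), Arhgap6 (0.88) and Luc7l2 (0.863), given as a description.

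Genes upstream of ERK were read from lists of receptors, cascade components and other inhibitors. Of 19 receptor tyrosine kinases, 8 were higher and 3 lower, with a list median of 0.12. For this and the following lists, the shares over all genes were 12.1% higher and 11.1% lower. Of the rows above the median level, 35.3% were called in either direction. The receptors of the transgene's ligand led: Pdgfra differed by 3.17 ± 0.102 and Pdgfrb by 2.02 ± 0.0881, followed by the collagen receptor Ddr2 at 1.31 ± 0.0949 and Axl, the receptor for Gas6, at 1.03 ± 0.0804. Kdr, the main VEGF receptor, fell by 1.01 ± 0.0976 on the log2 scale. The largest limma adjusted p of these was 5.53e-07 for Kdr. Some receptors are also counted among the cell type markers below. Pdgfra and Pdgfrb are in the stellate cell and fibroblast list, Kdr and Tek in the endothelial list and Csf1r in the macrophage list. Egfr differed by 0.25 ± 0.0894 and did not pass (limma adjusted p = 0.0564), though it was called higher in 8 of 27 alternative settings, 4 of them without single arrays (transgenic 5 or 6, wildtype 2 or 6; limma adjusted p 0.023 to 0.0397).

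Of 25 genes of the cascade from adaptors to ERK-activated kinases, 17 had a row and the other 8 were not analysed here. Of the 17, 4 were higher and 1 was lower (12.1% and 11.1% over all genes), with a median of 0.06. The adaptor gene Gab2 rose by 0.62 ± 0.0883, the RAS relatives Rras and Rras2 by 0.50 ± 0.0693 and 0.40 ± 0.0783, and Rps6ka3, a kinase that ERK activates, by 0.40 ± 0.113 (limma adjusted p at most 0.0175). Map2k2, which encodes MEK2, was the gene that fell (-0.32 ± 0.0628, limma adjusted p = 0.0012), while Map2k1 differed by -0.10 ± 0.0467 (limma adjusted p = 0.171). Rps6ka3 was not called after quantile normalization or centring (limma adjusted p = 0.05 and 0.0533).

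The list of other negative regulators held 7 higher and 1 lower gene among 20 (12.1% and 11.1% over all genes), with a median of 0.14. Of the higher genes, Rasgrp2 (0.28 ± 0.079, limma adjusted p = 0.0179, not called in 3 of 27 alternative settings), encodes an exchange factor that activates RAS-family GTPases and is no inhibitor; without it 6 of 19 were higher and 1 lower. Pea15a, whose product holds ERK in the cytoplasm, rose by 1.14 ± 0.0825, and the RAS-GAP gene Rasa3 by 0.75 ± 0.0823. Beside Nf1, the ubiquitin ligase gene Cbl rose by 0.39 ± 0.0631. Pebp1, which encodes the RAF kinase inhibitor protein, fell by 0.21 ± 0.0369 (limma adjusted p = 0.000371). The remaining Sprouty and Spred genes, Spry3 and Spred3, differed by -0.20 ± 0.123 and 0.13 ± 0.115 and did not pass (limma adjusted p = 0.309 and 0.517); Spry3 was a dim row, with means of 2.89 and 3.09 in the transgenic and wildtype groups.

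Of 8 further dual specificity phosphatase genes, 3 were higher and none was lower (12.1% and 11.1% over all genes), with a median of 0.03. Dusp10, a phosphatase of JNK and p38, rose by 0.71 ± 0.0821 (limma adjusted p = 4.72e-06), Dusp8 by 0.29 ± 0.0829 (limma adjusted p = 0.0175) and the ERK phosphatase gene Dusp7 by 0.24 ± 0.0802 (limma adjusted p = 0.0468). Dusp7 was not called in 19 of 27 alternative settings, among them those that omit any of transgenic arrays 2, 3, 4, 6 and 7 and wildtype arrays 1, 2, 4, 6, 7, 8 and 9 (limma adjusted p 0.0517 to 0.191 in the 19). Dusp8 was not called in 3 of the 27 (limma adjusted p 0.0529 to 0.0626). Dusp1, an immediate early phosphatase gene and a bright row, differed by -0.55 ± 0.211 and did not pass (limma adjusted p = 0.0837), but was called lower in 6 of the 27 settings, including the one without transgenic array 2 (-0.65, limma adjusted p = 0.0406).

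Other transcripts that respond to ERK were higher in 7 of 23 measured cases and lower in none (12.1% and 11.1% over all genes), with a median of 0.15. This list also held Elk3 and Cic, transcription factors that ERK phosphorylates, both called higher, Cic not in 6 of the 27 settings, among them those without transgenic array 3 or 4 (limma adjusted p = 0.0632 and 0.0616); without these genes 5 of 21 were higher. Emp1, an epithelial membrane protein gene, rose by 2.92 ± 0.0968 (limma adjusted p = 5.28e-13). Etv1, the remaining member of the PEA3 group, rose by 0.63 ± 0.128 (limma adjusted p = 0.00162), the cyclin D1 gene Ccnd1 by 0.50 ± 0.151 (0.0269) and the survival gene Mcl1 by 0.49 ± 0.059 (8.09e-06); Ccnd1 was not called without transgenic array 1 (0.0589), wildtype array 4 (0.0504) or transgenic array 1 and wildtype array 9 together (0.0685). Of the immediate early genes, Ier3 rose by 0.46 ± 0.0983 (limma adjusted p = 0.0024). Egr1 differed by 0.41 ± 0.165, Fos by -0.18 ± 0.0811 and Myc by 0.82 ± 0.301, and none of these passed (limma adjusted p = 0.0971, 0.148 and 0.0667). Ier2, Egr2, Egr3, Fosl1, Fosl2 and Junb did not pass either. Without single arrays, Egr1 was called higher (without wildtype array 6, limma adjusted p = 0.00429), as was Myc (without transgenic array 2 or wildtype array 1, 0.0264 and 0.0171). Fos was called lower after quantile normalization (-0.25, limma adjusted p = 0.0257), after centring (-0.23, 0.0475) and with the replicate block (-0.23, 0.0384). The 10 feedback genes had 6 of 10 higher calls and the receptors 8 of 19; no test compared the lists.

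**Figure D4:**
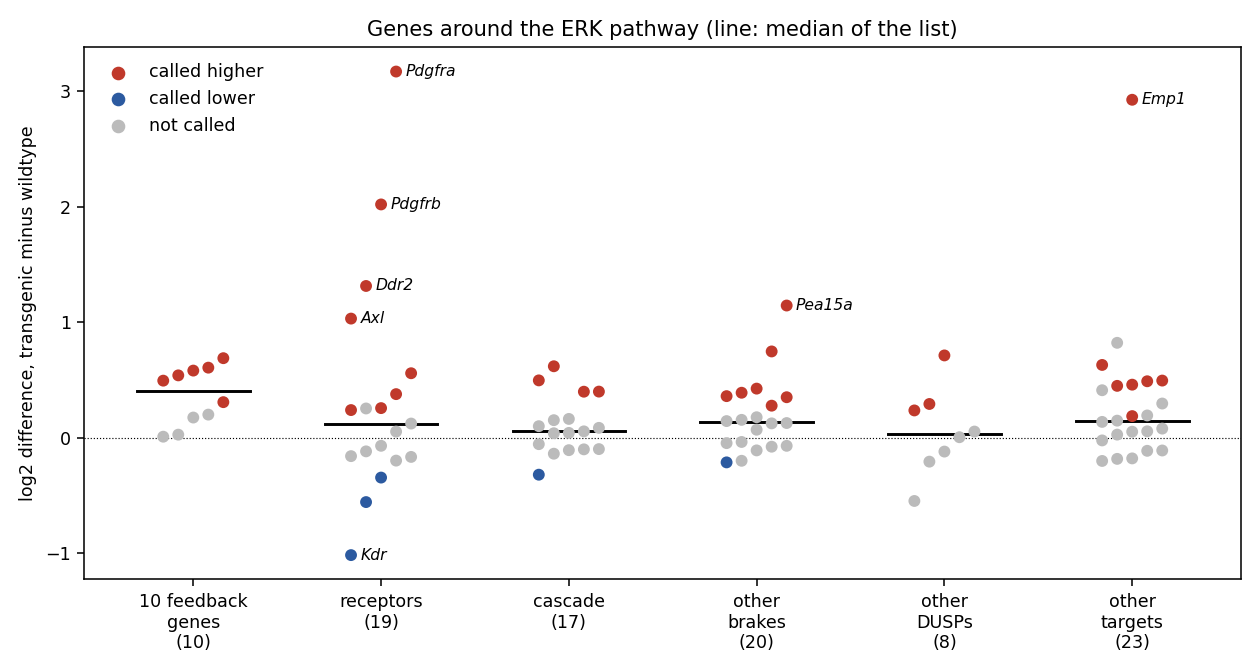
Log2 difference between transgenic and wildtype means for the 10 feedback genes and 5 lists of other genes around the ERK pathway; points are genes, red called higher, blue called lower, grey not called, and lines are list medians. The median is 0.40 for the feedback genes and 0.03 to 0.15 for the other lists.

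In RNA of whole liver, more cells of a type and more RNA per cell cannot be told apart, and markers of several cell types also differed between the groups. Stellate cell and fibroblast markers were higher in 15 of 16 cases, led by Lum (3.56 ± 0.174). Their summed log2 level was 129.2 to 134.1 on transgenic and 101.4 to 109.4 on wildtype arrays, with no marker below the 20th percentile. Only Thy1 (0.23 ± 0.1) did not pass, and the higher ones include Pdgfra and Pdgfrb, already counted as receptors. Lymphocyte markers were higher in 6 of 9 cases, with sums of 49.6 to 52.6 against 43.9 to 46.2. Macrophage markers were higher in 6 and lower in 5 of 12 cases, from Cx3cr1 (2.20 ± 0.106) to Cd5l (-2.83 ± 0.296), with sums of 79.9 to 88.3 against 83.2 to 92.3. Endothelial markers were higher in 4 and lower in 4 of 12, from Emcn (1.23 ± 0.117) to Clec4g (-2.27 ± 0.128), with sums of 82.1 to 85.7 against 83.7 to 88.0. Bile duct markers were higher in 1 of 6 (31.3 to 32.8 against 31.3 to 32.1). That marker was Cdh1 (0.41 ± 0.106), while Krt19, Krt7, Sox9, Epcam and Cftr did not pass. Hepatocyte markers were higher in 1 and lower in 5 of 11 (131.5 to 134.1 against 133.9 to 135.3). The called ones ran from Apoa1 (0.07 ± 0.0215) to Otc (-0.51 ± 0.0487), and G6pc (-0.54 ± 0.232) did not pass. Over all genes 12.1% were higher and 11.1% lower. The part of these cell types in the changes of the 10 genes was not tested.

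Within a group, the genes were set against the mean log2 level of each marker list. None of 120 relations passed (exact permutation test, lowest adjusted p = 0.215; 5 had an unadjusted p below 0.05). The relation with the smallest p was negative, between Dusp4 and the macrophage list on wildtype arrays (r = -0.883, rho = -0.9, n = 9, exact permutation p = 0.00179 and 0.00203, adjusted 0.215 and 0.122, and r = -0.859 without the arrays farthest from the Dusp4 median); on transgenic arrays r was 0.163 (n = 7, exact permutation p = 0.691). For the stellate cell and fibroblast list, the smallest p was that of Spred2 on transgenic arrays (r = 0.823, rho = 0.821, n = 7, exact permutation p = 0.0254 and 0.0341, adjusted 0.805 and 0.683), and r was 0.408 without the arrays farthest from the Spred2 median. On wildtype arrays the same relation had r = -0.434 (n = 9, exact permutation p = 0.243). Transgenic array 7, the highest in 7 of the 10 genes, also had the highest summed level of that list in its group (134.1). Wildtype array 2 had the highest sum of its group (109.4) and was the lowest in 4 of the genes, with the lowest mean over all 10 (6.08). The sum was 131.0 on transgenic array 6, the lowest in 5 genes, and 104.8 on wildtype array 9, the highest in 4. A link between these ranks and the marker sums was not tested.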

How the data were processed

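Each of 16 liver RNA samples was read on 1 array. The authors deposited log2 intensities made with GCRMA, per the submitters' processing notes, which give no version; the base follows from the values, 0.71 to 14.7. Small folds of dim genes are uncertain. Groups and replicate numbers came from the sample titles. Rows were named from the platform annotation: of 35557 rows, 21789 had 1 symbol, 1621 several and 12147 none listed. Each gene was read from its single-symbol row with the highest mean.

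Group differences came from limma 3.58.1 under R 4.3.3 (linear model, moderated variance with a trend, 14 residual degrees of freedom, two-sided) on all rows without a filter, with Benjamini-Hochberg adjustment. The fit was tested on simulated data. Within-array contrasts of family partners used the exact permutation test over samples (11440 label assignments), and correlations its version over pairings, in Python 3.11.15. The members and lists were chosen with earlier results of these data known. Named genes were the members, up to 4 called genes per pathway list by size plus the largest called fall, the 3 genes most like the member with the largest difference, and the ends of the marker lists; other genes were named after their values were seen. Alternatives are in the closing section. Precision is limited by the number of arrays.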

Additional observations from a re-analysis of the deposited data

How the results depend on the processing

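The counts of 6 higher and 0 lower among the 10 genes were the same in all 27 alternative settings: 2 rescalings (quantile normalization and median centring), 2 smaller sets of rows (those above the median level, where Etv4 was not tested, and those with 1 symbol), robust variances, variances with no trend, weighting of arrays, flooring at the 20th percentile, averaging all rows of a gene, a replicate block, each of the 16 arrays left out, and transgenic array 1 and wildtype array 9 left out together, the last chosen after the data were seen. Each gene kept its side of the threshold, and all but Dusp5 and Etv4 kept their direction. Dusp5, not called in any setting, changed sign after quantile normalization (-0.0576), centring (-0.0405), without transgenic array 1 and wildtype array 9 together (-0.0050) and in some sets with single arrays left out (-0.0280 to 0.0578). Etv4, also never called, changed sign after quantile normalization (-0.0154), centring (-0.0230), without both named arrays (-0.0084) and with some single arrays left out (-0.0135 to 0.0693). Among called rows, 56.3% were higher as deposited, 38.0% after centring and 48.3% after quantile normalization. Deviations of arrays with the same number correlated at -0.019 to 0.086. Arrays with different numbers were not set beside them, so these values cannot decide whether the numbers pair the samples. With the replicate block over the 7 shared numbers, 6 genes were higher and 0 lower.

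In the other lists, higher calls ranged over all settings from 3 to 6 in the cascade (4 as reported), 5 to 8 among other targets (7), 6 to 8 among other inhibitors (7) and 7 to 9 among receptors (8). Counts of lower calls moved by 1 gene; among receptors 4 instead of 3 were lower after centring, with Fgfr3 as the added gene. In the cascade list 2 instead of 1 were lower after quantile normalization or centring, among the brighter rows and with the floor, and 1 to 2 with arrays left out. Among other inhibitors 2 instead of 1 were lower after quantile normalization or centring, among the brighter rows and with the replicate block, and 1 to 2 with arrays left out. Among further phosphatases 1 instead of 0 was lower after centring, among the brighter rows, among rows with 1 symbol, with rows averaged and with the replicate block, and 0 to 1 with arrays left out; 1 instead of 3 was higher after quantile normalization, with the block and without transgenic array 1 and wildtype array 9 together, and 1 to 3 with arrays left out. Among other targets 1 instead of 0 was lower after quantile normalization, centring, with the block and without both named arrays, and 0 to 1 with arrays left out. The causes of these moves were not tested.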

Other observations

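No array of either group was an outlier by Dixon's gap test in any of the 10 genes. The mean log2 value of the 6 called genes was 6.96 to 7.27 on the transgenic arrays and 6.41 to 6.78 on the wildtype arrays, where array 9 was the highest. These 6 were picked for being higher on the same arrays, so the gap between the groups adds no further support. Over all 10 genes the means were 6.43 to 6.73 and 6.08 to 6.39.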
